A study of Homo sapiens and Mus musculus with 20 samples.

Results

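The 45 genes described here encode the machinery of cell division: mitotic kinesins, mitotic kinases and the chromosomal passenger complex, spindle proteins, cytokinesis proteins, the CDK1 switch, the anaphase machinery, and 4 further genes of dividing cells. They were chosen by symbol from their roles in the cell, but with earlier results of these data known. They were looked up in 12 RNA-seq libraries of IMR90, a line of fibroblasts from human fetal lung that stops dividing after a limited number of passages. Of the 17554 genes listed in any of the 3 IMR90 experiments, 43 members were among the 16683 genes of the A485 experiment, 42 among the 16417 of the MS-275 experiment and 32 among the 12013 of the pyruvate experiment. The study asked how histone lactylation relates to senescence, and gave wild-type IMR90 cells 1 of 3 agents, each set against its own untreated control: A485, which blocks the acetyltransferases p300 and CBP, MS-275, which blocks histone deacetylases of class I, and pyruvate. The study's text describes the cells that received pyruvate as senescent, which the labels do not state. The controls are numbered in the titles: Control2 for A485, Control3 for MS-275 and Control6 for pyruvate. Every group held 2 libraries. The labels give no dose, duration or passage number, all groups come from the same cell line, and nothing says that the libraries of a group came from separate cultures.

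Mitosis is driven by cyclin B bound to CDK1, which CDC25 phosphatases switch on and which the anaphase-promoting complex switches off by marking cyclin B and securin for destruction. Kinesins of the mitotic families build the bipolar spindle, align chromosomes on it and organise the central spindle, where the chromosomal passenger complex and centralspindlin direct cleavage. Most of these genes are transcribed in a burst in G2, through the DREAM, MYBL2 and FOXM1 regulators acting on a promoter element called the CHR (cell cycle genes homology region), often beside CCAAT boxes bound by NF-Y.

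Because many members share this promoter architecture, the 120 bases before 1 RefSeq transcription start of 9 of them are printed, on GRCh38.p14. They run 5′ to 3′ on the gene's strand. Gene ranges printed elsewhere come from GENCODE, whose starts can differ. By GENCODE, the stretches of CCNB2, PLK1, KIF20A, CDC25B and MYBL2 lie partly or wholly inside the gene. Capitals mark a CHR element (TTTGAA or TTTAAA on either strand) or a CCAAT box (CCAAT, or ATTGG on the other strand). The first 7 carry these letters and the last 2, CDC25B and MYBL2, carry none of them.
CCNB1 (chr5:69167030-69167149, plus strand): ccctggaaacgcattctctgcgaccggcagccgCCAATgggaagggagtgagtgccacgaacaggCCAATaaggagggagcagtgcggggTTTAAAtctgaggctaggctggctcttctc
CCNB2 (chr15:59105026-59105145, plus strand): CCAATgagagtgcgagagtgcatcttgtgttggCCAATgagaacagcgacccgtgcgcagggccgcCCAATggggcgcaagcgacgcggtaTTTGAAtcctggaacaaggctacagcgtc
CDC20 (chr1:43358861-43358980, plus strand): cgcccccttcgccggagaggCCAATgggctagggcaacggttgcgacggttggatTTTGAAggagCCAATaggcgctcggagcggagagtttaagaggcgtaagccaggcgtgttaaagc
PLK1 (chr16:23678769-23678888, plus strand): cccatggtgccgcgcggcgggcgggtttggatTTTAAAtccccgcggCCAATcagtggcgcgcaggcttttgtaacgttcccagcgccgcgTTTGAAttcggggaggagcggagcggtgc
KIF4A (chrX:70289984-70290103, plus strand): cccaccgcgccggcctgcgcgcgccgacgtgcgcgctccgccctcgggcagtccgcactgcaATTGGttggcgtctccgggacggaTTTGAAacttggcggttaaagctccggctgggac
KIF20A (chr5:138178992-138179111, plus strand): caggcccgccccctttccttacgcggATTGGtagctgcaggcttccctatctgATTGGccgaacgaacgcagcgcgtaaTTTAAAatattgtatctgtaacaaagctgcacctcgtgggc
MKI67 (chr10:128126424-128126543, minus strand): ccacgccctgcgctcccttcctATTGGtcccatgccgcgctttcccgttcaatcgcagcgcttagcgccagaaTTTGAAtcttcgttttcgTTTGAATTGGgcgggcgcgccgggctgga
CDC25B (chr20:3786831-3786950, plus strand): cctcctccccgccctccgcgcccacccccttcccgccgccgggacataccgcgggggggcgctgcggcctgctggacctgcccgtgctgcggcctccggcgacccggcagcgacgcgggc
MYBL2 (chr20:43666994-43667113, plus strand): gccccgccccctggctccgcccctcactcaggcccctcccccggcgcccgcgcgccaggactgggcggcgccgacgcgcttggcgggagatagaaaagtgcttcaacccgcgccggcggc

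RefSeq promoter windows, from 250 bases before to 50 bases after the start, were matched for 39 of the 45 members. A CHR element was found in 31 of the 39 (79.5%), against 24.3% of 27305 promoters of the same length. The form TTTGAA was in 27 member windows (69.2%, against 15.4%) and TTTAAA in 11 (28.2%, against 12.3%). CCAAT boxes lay in 30 windows (76.9%, against 35.7%), with 2 or more in 18 (46.2%, against 11.3%), and both elements occurred together in 27 (69.2%, against 9.49%). Position was also shared. In the 60 bases before the start a CHR element lay in 21 of the 39 members (53.8%), against 5.58% of all promoters, and a CCAAT box in 20 (51.3%), against 10.2%. In MKI67 a CHR element and a CCAAT box share bases. The 8 members without TTTGAA or TTTAAA in the window were AURKB, CCNA2, CDC25B, CDC25C, CKAP2, KIF22, MYBL2 and TACC3. Of them 5, CDC25B, CDC25C, CKAP2, MYBL2 and TACC3, had no CCAAT box either. Other forms of the CHR element and windows at other starts of these genes were not searched, so a gene without a match here may carry one elsewhere. A match describes these letters only and says nothing of binding in these cells.

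**Figure D1:**
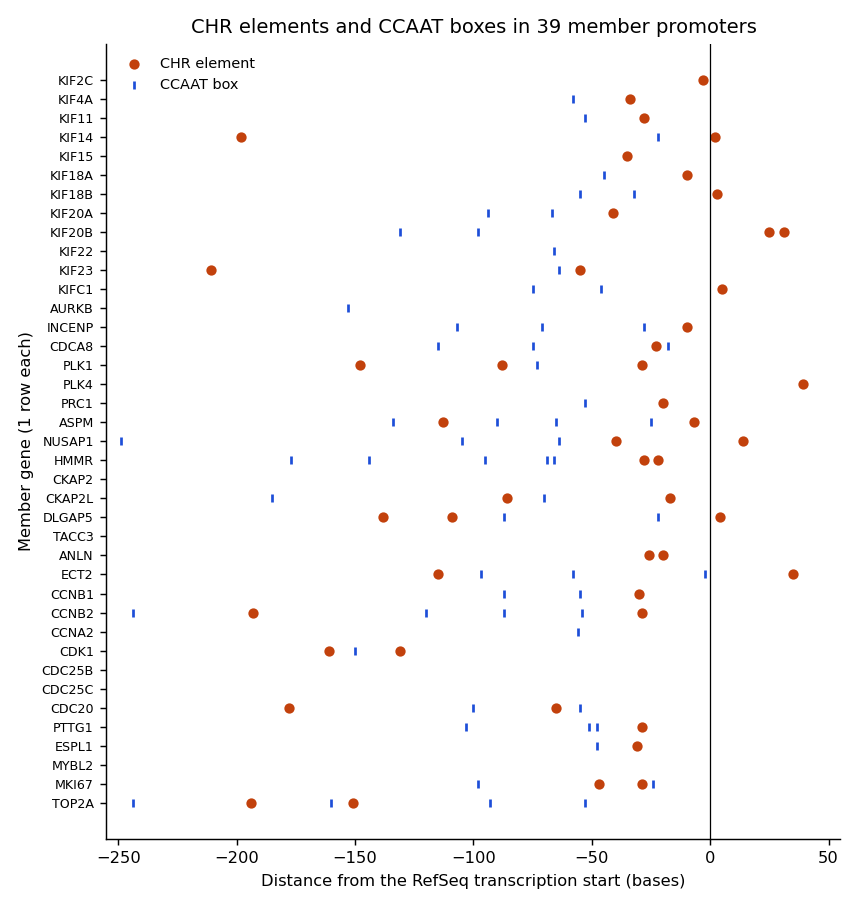
Positions of CHR elements (filled circles) and CCAAT boxes (blue ticks) in the promoter windows of 39 members, 1 row per gene, on a horizontal axis of distance in bases from the RefSeq transcription start. CHR elements lay in the 60 bases before the start in 21 members, and the rows of CDC25B, CDC25C, CKAP2, MYBL2 and TACC3 are empty.

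The deposited values were read counts per gene after 1 size factor per library, and each library held 24179065 to 46971227 reads over the listed genes. Replicates differed by more than sampling noise in every group, most in the MS-275 experiment. The 11 fibroblast markers were listed in all 3 experiments. In RPM, that is reads scaled to the same total of listed reads in each library, they summed to 44101 and 47551 in Control2 and 17492 and 19608 after A485, with 9 of the 11 called lower, and 16938 to 46484 RPM in the other 8 libraries. Epithelial markers summed to 0.91 to 7.93 RPM, endothelial markers to 13.6 to 63.8 and immune markers to at most 1.28. Of these markers CDH1, KRT5, KRT14, PECAM1, CDH5, PTPRC, CD68, CD3E and MARCO were not listed in any of the 3. EPCAM, KRT19, CLDN4, VWF, TEK, EGFL7, CLDN5, CD14 and LYZ were listed in at least 1. After A485 KRT19, TEK and VWF were called lower and EPCAM higher. After pyruvate EGFL7 and VWF were called lower and TEK higher.

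The summed reads of the 32 members listed in all 3 experiments give the first view of the set, although the tables were normalized separately and levels across them are side by side only. These members took 2818 and 769 RPM in Control2 and 1043 and 839 after A485. They took 1219 and 686 RPM in Control3 and 239.8 and 147 after MS-275, and 432 and 434 RPM in Control6 against 1868 and 1821 after pyruvate. On this scale both A485 libraries lay between the 2 controls, both MS-275 libraries lay below both controls, and both pyruvate libraries lay above both. The order for A485 turned with the scaling. With the deposited size factors, the scale of all later values, the same 32 members summed to 121710 and 36913 in Control2 and to 34667 and 30323 after A485, so both treated libraries lay below both controls. The orders after MS-275 and after pyruvate were the same on both scales. In these bulk libraries fewer dividing cells and less RNA per dividing cell cannot be told apart.

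**Figure D2:**
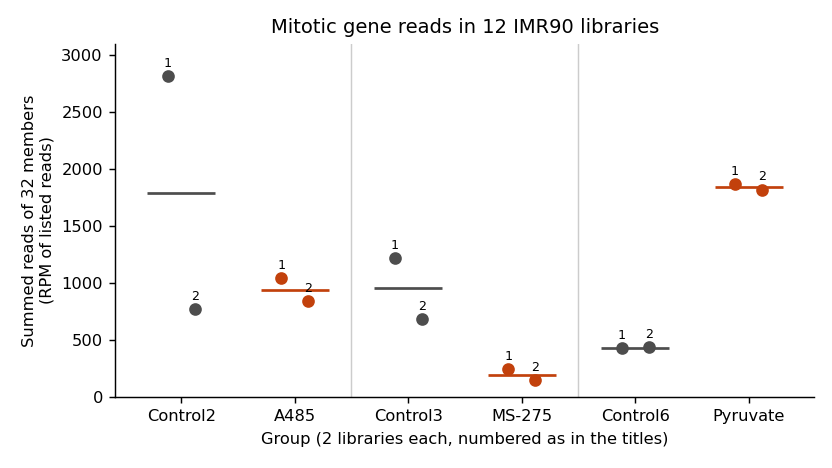
Summed reads of the 32 members listed in every experiment, in RPM of the listed reads (vertical axis, from 0), for the 6 groups; each point is 1 library with its replicate number, and each bar is the mean of 2. The 2 Control2 libraries lie at 2818 and 769, with the A485 libraries between them at 1043 and 839, whereas with the deposited size factors both A485 sums (34667 and 30323) lie below both controls (121710 and 36913).

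Per length, in RPKM (RPM for each kilobase of exon), CCNB1 was the most abundant member in Control2, at 73.4 and 15.2. CDC20 stood at 52.2 and 8.93 and TPX2 at 52 and 12.8 on the same scale in Control2. In Control6 the order differed, with CDC25B at 16.5 and 17.3 above CCNB1 at 9 and 9.08, and TOP2A was at only 0.114 and 0.156. The GC content of the longest transcript was 59.1% for CDC25B, 41.9% for CCNB1 and 38.9% for TOP2A. Its part in this order was not tested. After pyruvate TPX2 was highest at 50.3 and 51.8, next to CCNB1 at 49.1 and 47.6.

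Some members were not listed. NUSAP1 (chr15:41320794-41381050 in the hg38 annotation), a microtubule bundler, and KIFC1 (chr6:33391823-33409896), a minus-end motor that focuses spindle poles, were in no table. PRC1 (chr15:90966040-90995629), which bundles the midzone microtubules, was listed only in the A485 experiment, with normalised values of 23.5 and 4.9 in control and 16 and 3.56 after A485. In the GENCODE annotation 86.8% of the exon bases of NUSAP1 and 57.6% of those of PRC1 are shared with other genes on the same strand, against 0% for the other 43 members. How the authors' counting treated shared bases is not stated, and its part in these low or missing values was not tested. A further 10 members were missing from the pyruvate table: KIF11, KIF14, KIF15, KIF18A, KIF20B, PLK4, ASPM, HMMR, CKAP2L and DLGAP5. In that table every gene had at least 20 reads in 3 of its 4 libraries, so a gene had to be detected in at least 1 control library to be listed. The 13 members missing there had a median GC content of 38.3%, and 10 of the 13 were under 42%, against a median of 48.8% and 7 of 32 for the listed ones.

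After A485 the members tended to lower values, but none of the 43 was called. A call required an adjusted p under 0.05 (limma, Benjamini-Hochberg over 16084 genes) and an absolute log2 fold change above 1, which 7.06% of all genes met downwards and 3.31% upwards. The log2 fold change was below 0 in 42 of 43 members (49.5% of all genes), with a median of -1.14 against 0.01 over all genes. At an unadjusted p under 0.05, 16 members were lower, against 17.1% of all genes, and edgeR on the recovered reads also called 0 (6.98% of all genes) while DESeq2 called 22 lower (9.59% of all genes). Both treated libraries lay below both controls in 27 of 43 members, against 30.7% of all genes.

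The controls of the A485 experiment were far apart for these genes. Control library 1 was above control library 2 in 43 of 43 members (47.3% of all genes) and at least 2 times as high in 41 (8.97% of all genes), with a median ratio of 3.51. Members were lower within both replicate numbers in 33 of 43 cases (37.4% of all genes). With replicate number as a block 20 were called lower (10% of all genes), but the titles do not say that the numbers pair libraries. Within replicate number 1 the median member difference was -1.84 (log2) and within number 2 it was -0.27. Without control library 2 the median was -1.96 and 22 members were called lower (2.57% of all genes), whereas without control library 1 it was -0.30, with 15 members above 0 and 0 called (5 at an unadjusted p under 0.05, with 4.03% of all genes called lower). When libraries were scaled to the same total, the median over all genes became 0.40 and that of the members -0.74, so the distance between them was nearly the same.

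Among the 11 listed kinesins the A485 fold change ran from -1.90 for KIF20A to -0.26 for KIF11, and the control groups and treated groups did not overlap in 7. KIF20A (chr5:138178719-138187723), which carries the passenger complex to the central spindle, stood at 5385 and 1093 in the control libraries and at 564 and 748 after A485 (log2 fold change -1.90 ± 0.69 SE, adjusted p = 0.129). KIF2C, a microtubule depolymerase of the centromere, was at 2562 and 640.1 in control against 489.7 and 373. KIF4A, a chromosome-bound motor, was at 2490.3 and 602 against 582 and 412. In all 3 the second control library was much closer to the treated libraries than to the first. KIF23, the motor subunit of centralspindlin, had 3277 and 1272 in control and 941 and 763 after A485. KIF11, the motor that separates spindle poles, had 2497 and 848 and 1373 and 1080.4, and KIF22, another chromosome-bound motor, 2136 and 541 and 767 and 595. The A485 libraries of KIF11 and KIF22 lay between the 2 controls.

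The 7 kinases and passenger proteins had A485 fold changes from -1.94 to -0.45. PLK1, the polo kinase of mitotic entry, was at 3304 and 842 in control and at 434 and 432 after A485 (log2 fold change -1.94 ± 0.60 SE, adjusted p = 0.0869). BIRC5, the survivin subunit of the passenger complex, was at 4394 and 1206 against 787 and 678, and AURKA, the spindle pole kinase, at 3681 and 1333 against 903 and 938. These 3 were lower in both treated libraries than in either control. INCENP, the scaffold of the passenger complex, was at 1845 and 838 in control and 835 and 998 after A485, and its groups overlapped.

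Of the 8 listed spindle proteins, ASPM had the lowest A485 fold change and CKAP2 the highest, which was also the only one of the 43 members above 0. TPX2, which activates AURKA on spindle microtubules, stood at 8097 and 2212 in control and 1879.5 and 1917 after A485. ASPM, a spindle pole protein, stood at 2660.4 and 759 against 419.7 and 544. TACC3, which crosslinks the fibres that hold chromosomes, stood at 3914 and 1152 against 1212 and 1146. TPX2 and ASPM did not overlap between groups and TACC3 did. CKAP2 (chr13:52455429-52476628), a microtubule stabiliser, had 3616 and 1816 in control and 2995 and 2502 after A485 (log2 fold change 0.10 ± 0.33 SE), with both treated libraries between the controls, and the sign of that value turned to -0.08 once trends with transcript length and GC content were removed.

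The cytokinesis genes split. ANLN, the anillin scaffold of the contractile ring, had 7943 and 2543 in control and 2212 and 1894 after A485, without overlap. ECT2, the exchange factor that activates RhoA at the cleavage site, had 2811 and 1361 and 1701 and 1682, and RACGAP1, the partner of KIF23 in centralspindlin, 4765 and 1393 and 1913 and 1589. The treated libraries of ECT2 and RACGAP1 lay between the controls.

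The CDK1 switch held the member with the least distance between control libraries, CDC25B. This phosphatase, which activates CDK1, stood at 4854 and 2605 in control and 1670.5 and 1484 after A485 (log2 fold change -1.17 ± 0.31 SE), and its adjusted p of 0.0588 was the lowest of the 43. CCNB1, the main mitotic cyclin, stood at 7713 and 1776 against 1681 and 1660.3, and CCNB2, its close relative, at 2939.7 and 750.3 against 738 and 695. For both cyclins the treated values were slightly under control library 2 and several times under control library 1. CCNA2, the cyclin of S phase and G2, had 4290.3 and 882 in control and 1037 and 782 after A485, and CDK1 itself 2492 and 556 and 1643 and 811, both with overlap. The CDK1 fold change was -0.03 ± 0.71 SE and turned to 0.36 with equal library totals and to 0.04 with quantile normalization.

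The 4 anaphase genes were lower in both A485 libraries than in either control. CDC20 (chr1:43358981-43363203), the activator of the anaphase-promoting complex, had the lowest fold change of all 43 members, -2.35 ± 0.72 SE (adjusted p = 0.0846), from 4539.6 and 862 in control to 377 and 398 after A485. CDC20 was also the one member with a log2 difference under -1 in each replicate number, at -3.59 and -1.11, a pattern seen in 9.84% of all genes. UBE2C, the ubiquitin-conjugating enzyme of that complex, had 2692 and 633 against 478 and 351. PTTG1, the securin that holds separase inactive, had 2688 and 928 against 849 and 586, and ESPL1, separase itself, 908 and 284 against 254 and 271. For ESPL1 control library 2 and the treated libraries were almost level.

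Of the remaining 4 genes, FOXM1, a transcription factor of G2 genes, had 3205 and 1039 in control and 911 and 859 after A485. MYBL2, which acts with the MuvB complex, had 2308 and 552 and 1057 and 596, with overlap. MKI67, the Ki-67 coat of mitotic chromosomes, had 8396 and 2553 in control and 1639 and 1919.5 after A485, and TOP2A, the topoisomerase that untangles sister DNA, 9379 and 3459 and 2879.9 and 2326. Both chromosome genes and FOXM1 were lower in the treated libraries than in either control. The 9 called fibroblast markers named above moved in the same direction as these members after A485, and their part in the member values was not tested.

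After MS-275 the members lay far lower than in control, although the test without a replicate block called none. With replicate number as a block 38 of 42 were called lower (6% of all genes), but the titles do not say that the numbers pair libraries. The log2 fold change was below 0 in 42 of 42 listed members (50.6% of all genes), with a median of -2.82 against -0.01 over all genes. limma with Benjamini-Hochberg adjustment called 0 of 15883 genes lower (0%), so 0 of 42 members, while 31 members were lower at an unadjusted p under 0.05, against 4.69% of all genes. The count depended on single libraries: 15 members were called lower without control library 1 (0.617% of all genes), 32 without control library 2 (0.938%), 1 without treated library 1 (0.0126%) and 0 without treated library 2 (0%). Adjusted p-values of the members ran from 0.142 to 0.989. Both treated libraries lay below both controls in 34 of 42 members, against 19.3% of all genes. Within replicate number 1 the median difference was -2.98 and within number 2 it was -2.67. Members were lower within both numbers in 41 of 42 cases (40.4% of all genes), and in 36 the log2 difference was under -1 in each number (4.85% of all genes).

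Both groups of the MS-275 experiment held 1 library in which long, GC-poor transcripts were low. Over the 42 members, control library 1 minus control library 2 (log2) followed transcript length with Spearman's rho of 0.76 and GC content with -0.56, and over 15636 genes with 0.47 and -0.37. For the 2 treated libraries the values over the members were 0.56 and -0.72, and over all genes 0.45 and -0.45. Genes of 1 library share its depth and quality, so these are descriptions of 4 libraries. The 11 members with a longest transcript of at least 4500 bases differed between the controls by a median of 2.66, and the 31 shorter members by 0.55. Within replicate numbers 1 and 2 the difference between treated and control had medians of -2.80 and -2.03 for the long members and -3.19 and -2.95 for the shorter ones, so the long members lay less far below control, most in number 2. Over the 42 members the fold change followed transcript length with rho of 0.30 and GC content with -0.34. With length and GC trends removed from each library the member median was -2.83, and these values of rho were 0.30 and -0.35.

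**Figure D3:**
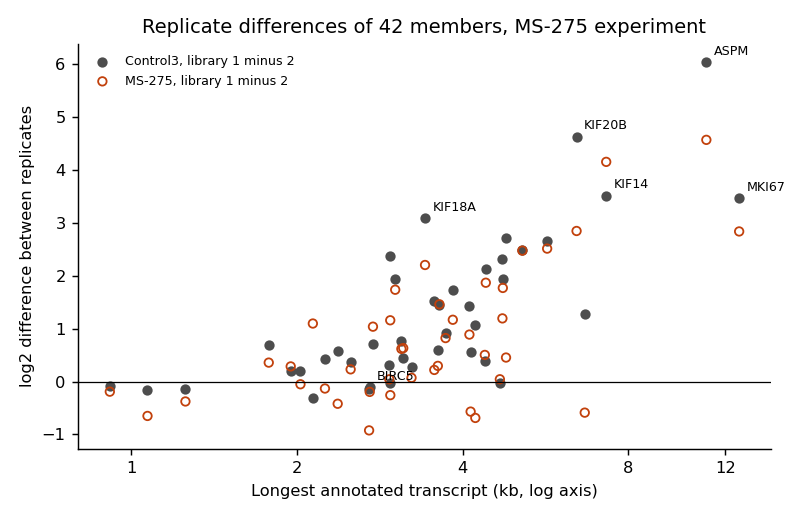
Replicate differences in the MS-275 experiment: log2 of library 1 minus library 2 (vertical axis) for 42 members in Control3 (filled) and after MS-275 (open), against the length of the longest annotated transcript in kilobases on a log axis. Long transcripts such as ASPM, KIF20B, KIF14 and MKI67 differ most between the controls, and members of at least 4500 bases have a median of 2.66 in control and 2.48 after MS-275.

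Among the 11 listed kinesins the MS-275 fold change ran from -5.65 for KIF20A to -0.29 for KIF18A, and in 9 the log2 difference was under -1 in each replicate number. KIF20A had 1529 and 904 in control and 28.1 and 17.9 after MS-275 (log2 fold change -5.65 ± 0.47 SE, adjusted p = 0.142). KIF2C had 866 and 880.2 and 59.1 and 70.8, and KIF4A had 784 and 598 and 85.2 and 59.8. Control library 1 over control library 2 was 0.98 for KIF2C, 1.31 for KIF4A and 1.69 for KIF20A, and the groups of these motors were far from overlapping. KIF18B, a motor that shortens astral microtubules, had 348 and 165 in control and 5.81 and 9.97 after MS-275. KIF23 had 1266 and 669 and 332 and 187, and KIF22 802 and 822 and 268 and 260.1. None of these overlapped between groups. KIF11 had 1483 and 263 in control and 343 and 60.8 after MS-275, so its groups overlapped while its differences within numbers were -2.11 and -2.09. KIF18A (chr11:28020619-28108156), which damps chromosome oscillation, had 532 and 61.6 and 320.5 and 68.8, and KIF20B, a motor of late cytokinesis, 899 and 35.4 and 229 and 30.9. KIF18A was the only one of the 42 members not lower within both numbers, at -0.73 and 0.16.

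The kinases and passenger proteins were lower within both numbers in 7 of 7 members. BIRC5 had 1379.8 and 1487 in control and 76.5 and 87.7 after MS-275 (log2 fold change -4.11 ± 0.33 SE, adjusted p = 0.142), the lowest value in its group. PLK1 had 977 and 666 and 56.2 and 83.7, and AURKA 1698 and 1261 and 526 and 576. AURKA thus kept a larger share of its control level than PLK1 and BIRC5. INCENP had 874 and 322 in control and 508 and 274 after MS-275, with overlap, and a fold change of -0.51 ± 0.63 SE.

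The 7 listed spindle proteins were lower within both numbers. TPX2 had 3014 and 1982 in control and 559.7 and 455 after MS-275, and TACC3 1449 and 1160.2 and 153 and 148, both without overlap. DLGAP5, a stabiliser of kinetochore fibres, had the lowest fold change of the group, -3.34 ± 0.92 SE, from 1269.8 and 246 to 81.3 and 35.9. ASPM, whose longest transcript has 11085 bases, had 1522 and 22.2 in control and 259.5 and 9.97 after MS-275, a control ratio of 68.5, and differences within numbers of -2.55 and -1.08. CKAP2 had 2817 and 1033 and 1582 and 574, with the smallest difference of the 7 listed spindle proteins and nearly the same difference within each number, -0.83 and -0.85.

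In cytokinesis, ANLN had 3736 and 975 in control and 611 and 178 after MS-275, and RACGAP1 1657 and 1371 and 628 and 598, both without overlap. ECT2 had 1832 and 417 and 1240.4 and 339, with overlap.

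The 6 members of the CDK1 switch had control libraries within 1.64-fold of each other and did not overlap between groups. CCNB1 had 2599 and 2251 in control and 451 and 467 after MS-275 (log2 fold change -2.39 ± 0.31 SE). CCNB2 had 1019 and 786 and 61 and 51.8 (-3.97 ± 0.37 SE), and CDK1 975 and 846 and 118 and 96.7 (-3.08 ± 0.35 SE). CCNB2 lay further below control than CCNB1. CCNA2 had 1225 and 748 in control and 198 and 95.7 after MS-275, and CDC25B 2973 and 2194 and 1411 and 909.8. CDC25B had the smallest difference of the 6 (-1.17 ± 0.39 SE). The 5 members without a CHR element or CCAAT box in the promoter window had MS-275 fold changes of -4.13 for MYBL2, -3.60 for CDC25C, -3.10 for TACC3, -1.17 for CDC25B and -0.84 for CKAP2. Their median was -3.10, and that of the 24 listed members with both elements was -2.97, with a range from -5.65 to -0.29. After A485 the same 5 had a median of -0.83, and the 25 listed members with both elements had -1.16. After pyruvate, before removal of length and GC trends, the medians were 1.28 for the 5 and 2.18 for 16 members with both. The part of these elements in the fold changes was not tested.

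The 4 anaphase genes did not overlap between groups. CDC20 had 1458 and 900.5 in control and 59.1 and 45.8 after MS-275 (log2 fold change -4.43 ± 0.42 SE, adjusted p = 0.142). UBE2C had 923 and 972 and 61 and 69.8, and PTTG1 1063 and 1183 and 376 and 590.0. PTTG1 differed far less than CDC20 and UBE2C. ESPL1 had 424 and 175 in control and 60 and 90.7 after MS-275.

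MYBL2 had 711 and 779 in control and 30 and 57.8 after MS-275 (log2 fold change -4.13 ± 0.46 SE), and FOXM1 1344 and 469 and 186 and 159 (-2.20 ± 0.59 SE). MKI67 had 4235 and 380.0 and 256 and 34.9, and TOP2A 5780.5 and 912 and 756 and 132. In both chromosome genes control library 2 lay far below control library 1, yet above both treated libraries, and the differences within numbers were -4.05 and -3.41 for MKI67 and -2.93 and -2.78 for TOP2A.

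The effects of A485 and MS-275 were compared directly in 1 limma fit of both experiments, with 8 libraries. None of 42 members passed an adjusted p of 0.05, against 0.634% of 15455 genes with the MS-275 effect lower, and 11 passed at an unadjusted p under 0.05, against 6.84%. The A485 fold change minus the MS-275 fold change was above 0 in 40 of 42 members (50.5% of all genes). With replicate number as a block 18 of 42 passed (12.2% of all genes), under the same limit on pairing. The smallest adjusted p was 0.0946 for MYBL2, with fold changes of -0.51 after A485 and -4.13 after MS-275 and a difference of 3.62 ± 0.95 SE. KIF20A followed, with a difference of 3.75 ± 0.99 SE and an adjusted p of 0.0961. CDK1 differed by 3.05 ± 0.95 SE (adjusted p = 0.147). Without A485 control library 1, the high one, 10 members passed (0.259% of all genes).

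**Figure D4:**
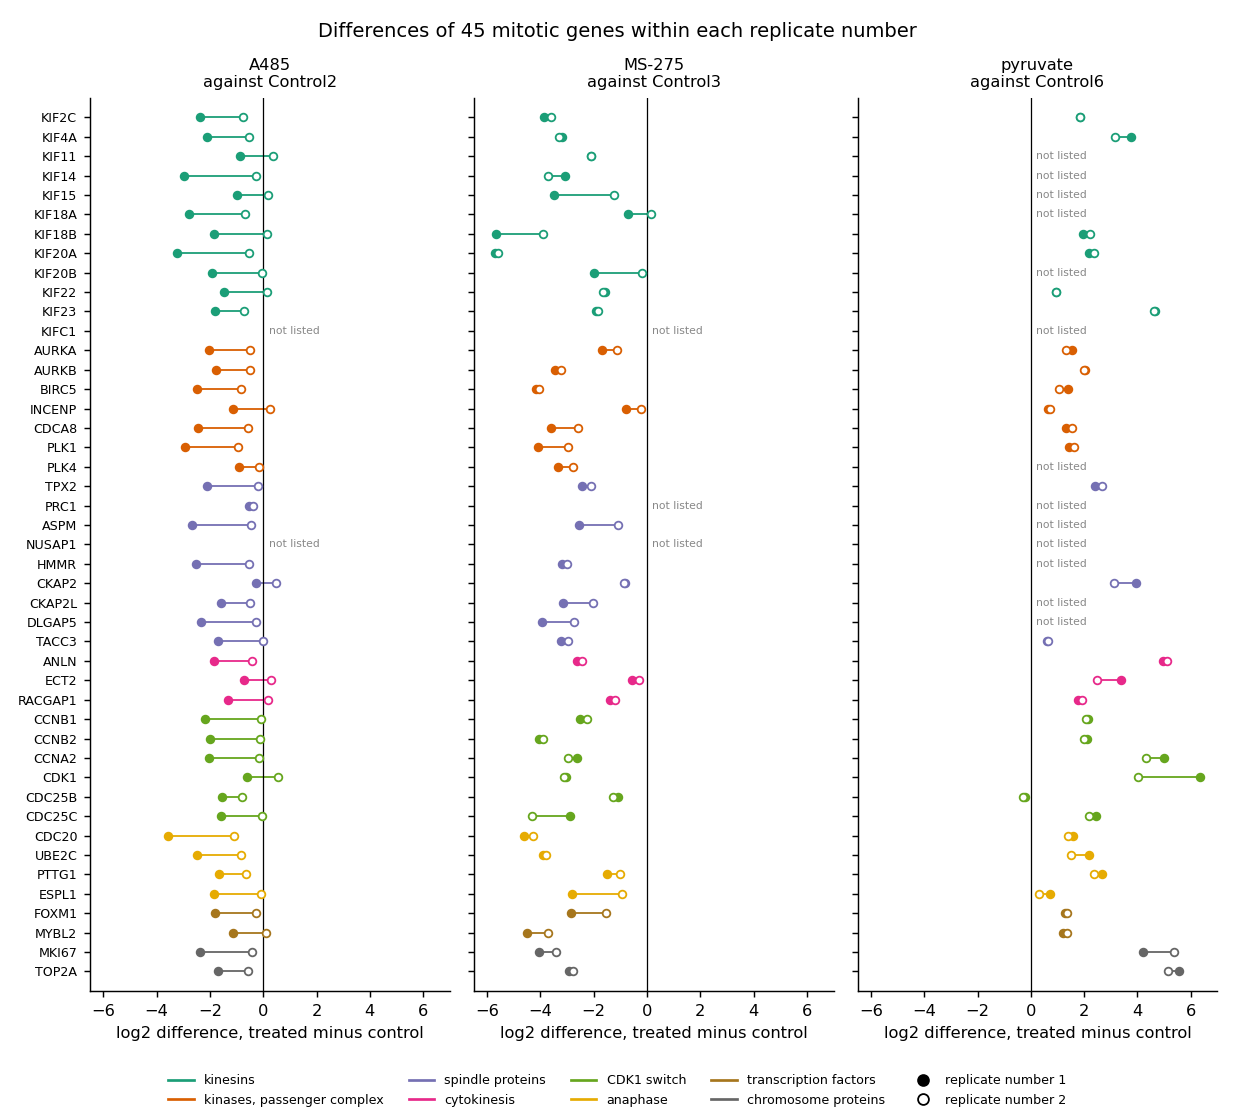
Treated minus control difference on the log2 scale (horizontal axis) of each member, within replicate number 1 (filled) and number 2 (open), joined by a line and coloured by role, for the A485, MS-275 and pyruvate experiments. After A485 the number 2 values cluster near 0, with a median of -0.27, after MS-275 both numbers lie left of 0 in 41 of 42 members, and after pyruvate both lie right of 0 in 31 of 32.

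After pyruvate most listed members rose. Of 32 members 27 were called higher, against 31.0% of 12013 genes, and 0 were called lower, against 23.1% (limma, Benjamini-Hochberg). At an adjusted p under 0.05 alone 31 were higher (40.6% of all genes) and 1, CDC25B, was lower. The median log2 fold change was 2.03, against -0.01 over all genes, and both pyruvate libraries lay above both controls in 31 of 32 members (45.2% of all genes). Fold changes ran from -0.25 for CDC25B to 5.35 for TOP2A. The count called higher was also 27 without any 1 of the 4 libraries, with 30.3% to 31.3% of all genes.

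The size of the rise followed GC content. Spearman's rho between fold change and the GC content of the longest transcript was -0.80 over the 32 members and -0.70 over 11888 genes, which share 4 libraries. With length and GC trends removed from each library rho over the members was -0.21, 29 of 32 were called higher (15.7% of all genes), and the median was 2.30. Single values moved in both directions: TOP2A went from 5.35 to 3.53, CDC20 from 1.49 to 2.54, and CCNB1 from 2.11 to 0.95. CCNB1 and RACGAP1 ended below the fold threshold, at 0.95 and 0.95, and 4 members moved above it, KIF22 to 1.5, INCENP to 1.53, TACC3 to 1.55 and ESPL1 to 1.07. The order of the members by fold change is that of the values before this removal.

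**Figure D5:**
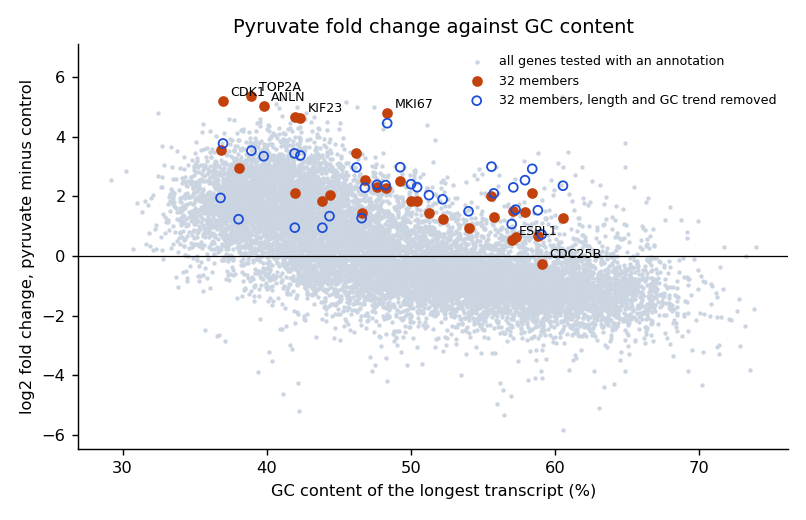
Log2 fold change after pyruvate (vertical axis) against the GC content of the longest transcript in percent (horizontal axis), for all tested genes with an annotation (grey), the 32 members as measured (filled) and the same members after removal of a length and GC trend (open). The filled points fall from TOP2A, CDK1 and ANLN at the left to CDC25B at the right, and the open points show a weaker slope, with rho of -0.21.

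Of the 6 listed kinesins 5 were called higher. KIF23 had 51.1 and 52.1 in control and 1318 and 1297 after pyruvate (log2 fold change 4.64 ± 0.16 SE, adjusted p = 7.62e-10). KIF4A had 96.3 and 143 and 1299.6 and 1279, and KIF20A 442 and 397 and 1993 and 2037. Replicates of these 3 lay close together next to the distance between groups. KIF2C had 356 and 346 in control and 1279 and 1247 after pyruvate. KIF22 averaged 504 ± 26.5 in control and 963 ± 55.9 (SD, n = 2) after pyruvate, a fold change of 0.93 ± 0.11 SE that passed the adjusted p but stayed under the fold threshold. KIF11 was not listed here.

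The kinases and passenger proteins included 5 called members of 6 listed. PLK1 had 404 and 369 in control and 1087 and 1136 after pyruvate, BIRC5 839 and 1018 and 2222 and 2138. AURKA had 473 and 584 and 1375 and 1457, and AURKB, the kinase of the passenger complex, had the largest fold change of the group, 2.01 ± 0.17 SE, from 178 and 152 to 734 and 600.4. INCENP, the scaffold, again differed least, with 586 and 544 and 922 and 892 (0.68 ± 0.11 SE). No group overlapped its control.

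Of the 9 spindle proteins 3 were listed. TPX2 had 813 and 699.9 in control and 4309.8 and 4453 after pyruvate, and CKAP2 39.3 and 60.8 and 625 and 534, and both were called. TACC3 had 1208 and 1189 and 1850.1 and 1871, a fold change of 0.63 ± 0.08 SE. It passed the adjusted p (2.17e-05) under the fold threshold.

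The 3 cytokinesis genes rose. ANLN had 42.2 and 39.1 in control and 1336 and 1383 after pyruvate (log2 fold change 5.03 ± 0.17 SE, adjusted p = 6.44e-10). ECT2 had 49.1 and 77 and 518 and 441, and RACGAP1 789 and 656 and 2698 and 2500.4. Per length, RACGAP1 had 5.93 and 4.97 in Control6, well above ANLN at 0.238 and 0.221 and ECT2 at 0.302 and 0.476. In Control2 ANLN was at 30.7 and 8.84, above RACGAP1 at 24.6 and 6.47, and ECT2 was at 11.8 and 5.16. GC content was 43.9% for RACGAP1, 39.8% for ANLN and 38.0% for ECT2, and its part in these levels was not tested.

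In the CDK1 switch 5 of 6 members rose. CDK1 had 3.93 and 26 in control and 403 and 443 after pyruvate (log2 fold change 5.20 ± 0.62 SE), and its first control value stood for 4 reads. CCNA2 had 36.3 and 56.4 and 1199 and 1156, CCNB1 648 and 649.9 and 2837 and 2762, and CCNB2 243 and 258 and 1049.9 and 1032. The 2 B-type cyclins had nearly the same fold change, 2.11 and 2.05. CDC25B (chr20:3786772-3806121) had 1904 and 1989 in control and 1631 and 1630.3 after pyruvate, a fold change of -0.25 ± 0.08 SE with an adjusted p of 0.0109. It was the one member with both treated libraries below both controls, and its fold change was 0.06 with equal library totals, where the median over all genes was 0.30, and 0.72 with the length and GC trend removed.

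Of the anaphase genes 3 of 4 were called higher. PTTG1 had 213 and 235 in control and 1376 and 1214 after pyruvate, and UBE2C 195 and 281 and 899.5 and 796. CDC20 had 492 and 510.0 and 1484 and 1330.1, and ESPL1 272 and 331 and 454 and 414, a fold change of 0.53 ± 0.16 SE. ESPL1 had the smallest difference of the anaphase genes and did not reach the fold threshold.

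Both transcription factors and both chromosome genes rose. FOXM1 had 641 and 569.6 in control and 1567 and 1446 after pyruvate, and MYBL2 482 and 464 and 1119.7 and 1185. MKI67 had 161 and 71.6 and 2995 and 2999 (log2 fold change 4.79 ± 0.28 SE). TOP2A (chr17:40388525-40417896) had 21.6 and 29.3 and 1059.7 and 1076 (5.35 ± 0.22 SE, adjusted p = 2.15e-09). Per length, the control levels of FOXM1 (4.4 and 3.94) and MYBL2 (5.87 and 5.69) were above those of MKI67 (0.423 and 0.189) and TOP2A (0.114 and 0.156) on the scale used above. In Control2 the order differed, with TOP2A at 34.1 and 11.3 above FOXM1 at 15.1 and 4.4 and MYBL2 at 19.2 and 4.145. GC content was 38.9% for TOP2A, 48.3% for MKI67, 55.7% for FOXM1 and 60.5% for MYBL2. Its part in these levels was not tested.

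Other genes of the pathway were counted by the same rule, against the shares of all genes given above. These were 7.06% called lower and 3.31% higher after A485, and 23.1% lower and 31.0% higher after pyruvate. After MS-275 0% were called in either direction, so a count of 0 there does not describe a list. The pyruvate values of all these lists are those before removal of length and GC trends. Over 11888 genes those fold changes followed GC content with Spearman's rho of -0.70. Of 26 kinesins and light chains of intracellular transport, 23 were tested after A485, with KIF17 called lower, KIF21A and KIF3A called higher and a median log2 fold change of 0.17. After MS-275 0 of 23 were called and the median was 0.09. After pyruvate 6 of 18 were called lower, among them KIF1C and KLC2, and 5 higher, among them KIF13A and KIF5B, with a median of -0.65. These shares after pyruvate are near those of all genes. The transport kinesin medians after A485 and MS-275 were near those over all genes, 0.01 and -0.01. After pyruvate the median over all genes was -0.01, and the part of GC content in the transport kinesin median was not tested.

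The 14 core subunits of the anaphase-promoting complex had a median fold change of 0.18 after A485 and -0.24 after MS-275, with 0 called in either. After pyruvate, before removal of length and GC trends, 7 of 14 were called higher, CDC27 most at 3.22, and ANAPC11 was called lower. Both pyruvate libraries lay above both controls in 9 of 14 (45.2% of all genes). They lay below both in 5, a count whose share of all genes is not given here. The 11 genes of the MuvB and DREAM complexes, which bind CHR elements, had medians of 0.12 after A485 and -0.61 after MS-275 with 0 called. For pyruvate 5 of 10 were called higher and E2F4 was called lower. Among 15 further genes of mitotic entry and exit 0 were called after either inhibitor, and PKMYT1, an inhibitory kinase of CDK1, had the lowest value after both, -1.03 and -3.51. After pyruvate 4 of 11 tested were called higher, MASTL, WEE1, ARPP19 and CDC14B, and FZR1 was called lower. The share called higher is near that of all genes (31.0%). Both pyruvate libraries lay above both controls in 9 of the 11 (45.2% of all genes). Of 12 centrosome genes 0 were called after the inhibitors. NEK2, a centrosome kinase of G2, had the lowest fold change there, -1.62 after A485 and -4.24 after MS-275. After pyruvate 4 of 6 tested were called higher, CEP55, STIL, CCP110 and CDK5RAP2, and TUBG1 was called lower.

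The inhibitors of CDKs and the G1 cyclins were the last lists. After pyruvate, again before removal of length and GC trends, CDKN1A, CDKN2A and CDKN2D were called lower and CDKN1B and CDKN2C higher. After A485 0 were called. After MS-275, where no gene at all was called, the 7 listed inhibitors had a median log2 fold change of 0.825. Both MS-275 libraries lay above both controls for CDKN1A, CDKN2A, CDKN2B and CDKN2D. The share of all genes with that order is not given here, so these 4 do not describe the list. Both MS-275 libraries lay below both controls in 3, CDKN1B, CDKN1C and CDKN2C (19.3% of all genes), with CDKN1C lowest at -3.23. CCND1, a D-type cyclin of G1, was called lower after A485 at -2.14, and CCND2 higher at 1.94. After pyruvate CCND1, CCND3 and CCNE1 were called lower, with CCND3 lowest at -2.57. Reads of the 7 listed G1 cyclins and CDKs summed to 3513 and 3357 RPM in Control6 and 1720.4 and 1708 after pyruvate. CCND1 held most of these reads. The median log2 fold change of the 7 tested genes of this list was 0.14. Both pyruvate libraries lay above both controls in 3 (45.2% of all genes). They lay below both in 3, a count whose share of all genes is not given here. The genes of this list thus did not share a direction.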

How the data were processed

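RNA was sequenced in bulk from IMR90 cells, and 12 of the series' 20 libraries are used here. The authors trimmed reads with Trim Galore (version 0.6.10), aligned them to hg38 with HISAT2 (2.2.1), counted them per gene with featureCounts (2.0.6) and normalized the counts with DESeq2 (1.34.0). The deposited signal is thus the count of each gene after division by 1 size factor for each library. All values were whole multiples of the value of 1 read (tolerance 0.001). The annotation and strand setting of the counting are not stated.

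Groups follow the sample titles, and each experiment was fitted alone. Values were taken as log2(value + 1), a scale on which fold changes of low genes come out too small. Testing used genes whose 4 values averaged 10 or more, with limma (3.58.1, R 4.3.3; eBayes with trend, no covariate, Benjamini-Hochberg over all genes tested). All listed members passed this filter. Calls needed both an adjusted p under 0.05 and a log2 fold change beyond 1 in either direction. The p-values measure the spread between libraries, which may be technical.

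The 45 members, the other gene lists and the tests were chosen with earlier results of these data known. Named with values were, in each role, the members with the highest mean over the libraries of the tables that list them (8 or 12 libraries, 6 kinesins, 4 of each other role), missing members, members of opposite sign and the ends of ranges. Transcript length, GC content and exon overlap came from GENCODE on hg38, with symbols matched for 98.4% of the genes listed in the A485 and MS-275 experiments and 99.0% of those in the pyruvate experiment. Promoters came from RefSeq. Spearman correlations across genes carry no p-value.

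Alternatives were pseudocounts of 0.1 and 10, no filter or a mean of at least 50, equal library totals, quantile normalization, eBayes without trend, a replicate block, a fold change minimum of 0.58, a fit shared by the 12 libraries, edgeR (4.0.16) and DESeq2 (1.42.0) on the recovered reads of the A485 experiment, removal of length and GC trends, and each library left out in turn. The removal for A485 and MS-275 was chosen after seeing the data. The tests were checked on simulated data. Muscle libraries are not used here.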

Additional observations from a re-analysis of the deposited data

How the results depend on the processing

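With 2 libraries a group, the count of calls depended on how the spread was estimated. In the A485 experiment DESeq2 called 22 members lower, the replicate block 20 (10% of all genes) and the fit shared by the 12 libraries 4 of 32 (8.78%), against 0 by limma and by edgeR. In the MS-275 experiment the replicate block called 38 (6% of all genes) and the shared fit 17 of 32 (2.23%). For the difference between both effects the replicate block called 18 of 42 (12.2%). The MS-275 and pyruvate experiments had no count test. Titles give replicate numbers without saying that they pair libraries. Deviations of same-numbered libraries from their group means correlated across genes by 0.32 in the A485 experiment, 0.73 in the MS-275 experiment and 0.00 in the pyruvate experiment, and the block left the pyruvate count at 27. Leaving out 1 library gave 0 to 22 members called lower after A485, 0 to 32 after MS-275 (15 without control library 1, 32 without control library 2, 1 without treated library 1) and 0 to 10 past the threshold for the difference. Such fits assume that a lone library varies like the other group. The direction of the median member was the same under every alternative in the 3 comparisons. For pyruvate the median was 1.98 with a pseudocount of 10, 2.34 with equal library totals, 1.67 with quantile normalization, 2.30 with length and GC trends removed, and 1.95 to 2.07 with 1 library left out. The shared fit called 24 of 32 and a fold change minimum of 0.58 called 30. With equal totals the median over all genes was 0.40 for A485 and 0.30 for pyruvate, and with quantile normalization 0.12 and -0.17. Single members changed sign: KIF11 to 0.14, ECT2 to 0.18 and CDK1 to 0.36 with equal totals after A485, CDK1 to 0.039 with quantile normalization, CKAP2 to -0.081 with length and GC trends removed, and after pyruvate CDC25B to 0.056 with equal totals and 0.72 with those trends removed. Of 1819 values of single members under an alternative, 1601 kept direction and side of the threshold, 179 passed it newly, 5 no longer passed and 34 changed sign. With 1 library left out the fold changes that changed sign ranged, after A485, as follows: CCNA2 -2.25 to 0.029, CDC25C -1.86 to 0.20, CDK1 -1.11 to 1.05, CKAP2 -0.40 to 0.59, ECT2 -0.73 to 0.31, INCENP -1.01 to 0.12, KIF11 -1.03 to 0.52, KIF15 -1.16 to 0.34, KIF18B -2.31 to 0.61, KIF22 -1.66 to 0.32, MYBL2 -1.54 to 0.52, PLK4 -1.41 to 0.34, PRC1 -1.48 to 0.58, RACGAP1 -1.45 to 0.32, TACC3 -1.73 to 0.033. After MS-275 they ranged as follows: ASPM -4.83 to 1.20, ECT2 -1.50 to 0.63, INCENP -1.22 to 0.21, KIF18A -1.83 to 1.26, KIF20B -3.40 to 1.23. Why single values changed was not tested. Members with under 20 reads in at least 1 library, where counting error is large, were PRC1 in the A485 experiment, KIF14, KIF18B, KIF20A, PLK4, ASPM and CDC25C in the MS-275 experiment and CDK1 in the pyruvate experiment.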
